A study of Homo sapiens with 6 samples.

Results

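Laminins are the large cross-shaped glycoproteins of basement membranes, and the 8 laminin chain genes described here are LAMA1, LAMA3, LAMA4 and LAMA5 for alpha chains, LAMB1, LAMB2 and LAMB3 for beta chains and LAMC1 for a gamma chain. They were found in the table by gene symbol, and all 8 were present once among 58051 genes. The samples were sorted MDA-MB-231 cells, an established, mesenchymal-like human breast cancer line, labelled wild type. All cells had been exposed to human recombinant FABP4, a fatty acid carrier, tagged with the dye FITC, and were parted by flow cytometry into FABP4 binding cells (3 libraries) and FABP4 non-binding cells (3 libraries). There were no unsorted or unstained samples among the 6 libraries, so each group is described only against the other. Values are TPM, a share of a library's transcripts corrected for transcript length. TPM keep no read depth, so no counting interval can be given. Whether replicates were grown or sorted separately is not stated in the labels, so a p-value here speaks for the scatter among these 6 libraries alone, and that scatter may be technical.

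Each laminin is built from 1 alpha, 1 beta and 1 gamma chain, wound into a coiled coil inside the cell before secretion, and is named by the numbers of its chains. A laminin with LAMA5, LAMB2 and LAMC1 is thus laminin 521. Not every combination is made: LAMB3 is known to join LAMA3, in the laminin that anchors the hemidesmosomes of epithelia, whereas LAMC1 joins most other trimers. The alpha chain carries the main binding sites for integrins and dystroglycan. In breast tissue, laminins with LAMB3 or LAMA5 lie in the basement membrane around the epithelium.

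Transcripts of LAMA5, LAMB2, LAMC1 and LAMB3 were higher in the FABP4 binding cells, by 2.82, 2.25, 2.04 and 1.88 times. The first 3 of these are the chains of laminin 521. LAMB1, LAMA4 and LAMA3 did not pass the test, and LAMA1 was too low to be tested. LAMA3 was the chain whose values lay lower in the binding libraries, at 1.40 ± 0.410 against 2.50 ± 0.530 TPM (SD, n = 3 libraries each).

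A gene was tested where 3 or more libraries reached 1 TPM, which 7 of the 8 members did, and 4 passed upward by limma with Benjamini-Hochberg adjustment at 0.05 over 15574 genes. None passed downward, and at an unadjusted p under 0.05 the counts were 5 and 0. Among all tested genes 19.6% were called higher and 7.12% lower. The median log2 change of the 7 was 0.90, against 0.36 for all tested genes. When the libraries were shifted to a common median, the shares called were 6.18% higher and 12.1% lower. After quantile normalization 7.69% were called higher, 1197 genes against 1246 called lower. The same 4 members were called higher in both. In 6 members every binding library lay above every non-binding library, and in 1, LAMA3, below. The background for such separation was 38.6% upward and 13.6% downward. The calls of LAMB2, LAMC1 and LAMB3 shared a limit. Without non-binding replicate 3 their adjusted p by limma was 0.0517 to 0.0564, with log2 changes of 1.16, 1.02 and 0.85. LAMA5 was then the 1 member left, and 0.372% of all genes were called higher.

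The 5′ flanks of the 4 called genes and of LAMA3 are shown here because the called members differ together and LAMA3 does not follow them. The sequences are from RefSeq (GRCh38.p14), which listed 7 of the 8 members. They run 5′ to 3′ on the gene's strand, within the 250 bases before a RefSeq start, and stop where GENCODE release 29 places an exon of the gene. For LAMA3, where an exon of 1 transcript covers most of the flank, 2 windows of 30 bases are shown instead. Capitals mark the searched motifs on either strand: the GC box (GGGCGG), the CCAAT box (CCAAT), the TATA box (TATAAA) and the AP-1 site (TGANTCA), which do not overlap each other here.
LAMA5, chr20:62367313-62367562, minus strand: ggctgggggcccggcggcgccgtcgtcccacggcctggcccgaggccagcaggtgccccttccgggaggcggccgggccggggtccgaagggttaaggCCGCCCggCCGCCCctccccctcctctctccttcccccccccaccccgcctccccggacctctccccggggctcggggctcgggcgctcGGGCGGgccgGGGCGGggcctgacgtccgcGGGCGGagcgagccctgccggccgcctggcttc
LAMC1, chr1:183023170-183023419, plus strand: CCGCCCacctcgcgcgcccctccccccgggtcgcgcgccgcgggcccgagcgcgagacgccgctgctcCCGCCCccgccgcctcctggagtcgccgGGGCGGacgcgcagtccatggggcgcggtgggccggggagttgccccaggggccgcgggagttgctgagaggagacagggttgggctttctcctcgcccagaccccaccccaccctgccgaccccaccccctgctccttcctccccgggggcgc
LAMB2, chr3:49133119-49133300, minus strand: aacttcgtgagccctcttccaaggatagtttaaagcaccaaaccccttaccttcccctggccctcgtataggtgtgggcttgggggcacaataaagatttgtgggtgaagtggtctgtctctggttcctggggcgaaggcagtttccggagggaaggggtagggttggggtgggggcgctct
LAMB3 outer start, chr1:209652467-209652675, minus strand: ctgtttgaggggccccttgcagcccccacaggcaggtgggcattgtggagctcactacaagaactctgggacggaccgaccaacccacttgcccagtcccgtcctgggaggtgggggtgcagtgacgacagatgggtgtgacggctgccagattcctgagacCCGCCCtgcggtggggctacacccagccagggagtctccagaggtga
LAMB3 inner start, chr1:209651395-209651624, minus strand: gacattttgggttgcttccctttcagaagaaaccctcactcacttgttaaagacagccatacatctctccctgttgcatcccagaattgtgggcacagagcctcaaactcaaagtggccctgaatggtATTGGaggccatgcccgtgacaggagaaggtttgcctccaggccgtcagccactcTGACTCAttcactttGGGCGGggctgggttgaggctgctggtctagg
LAMA3, chr18:23872883-23872912, plus strand: tctggcacaggcTGACTCAtgtgtgaagtt
LAMA3, chr18:23872939-23872968, plus strand: gccttcctcaccTGAGTCAggcaggcccgg

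The flanks of LAMA5 and LAMC1 were rich in G and C, at 82.8% and 79.6% of the 250 bases against a median of 58% over 35116 promoters in the table. LAMA5 held 5 GC boxes and LAMC1 held 3. LAMB2 had 58.4% G and C and a single GC box, which is not within the printed bases. LAMB3 has 3 listed starts, each with 1 GC box, and its inner start also had a CCAAT box and an AP-1 site. The flanks of the other 2 starts overlap and hold the same GC box. LAMA3 had 1 GC box and 2 AP-1 sites, 125 and 69 bases before its 1 listed start, both shown above. That start lies within the gene, which begins at 23689443, and no flank of an outer LAMA3 start was searched. The GC box was also found 4 times before LAMB1, which was not called. None of the 4 motifs was found in the 250 bases before the listed LAMA4 start, where GENCODE places an exon of the gene from the first base searched. Over all promoters of this length, 42.6% held the GC box, 32.0% the CCAAT box, 10.7% the TATA box and 6.57% the AP-1 site. A match is only a match of letters. The 4 called members thus shared the GC box, a motif common in all promoters, and differed in base composition and in the AP-1 letters. Gene-level TPM do not show which start of LAMB3 or LAMA3 was used.

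**Figure D1:**
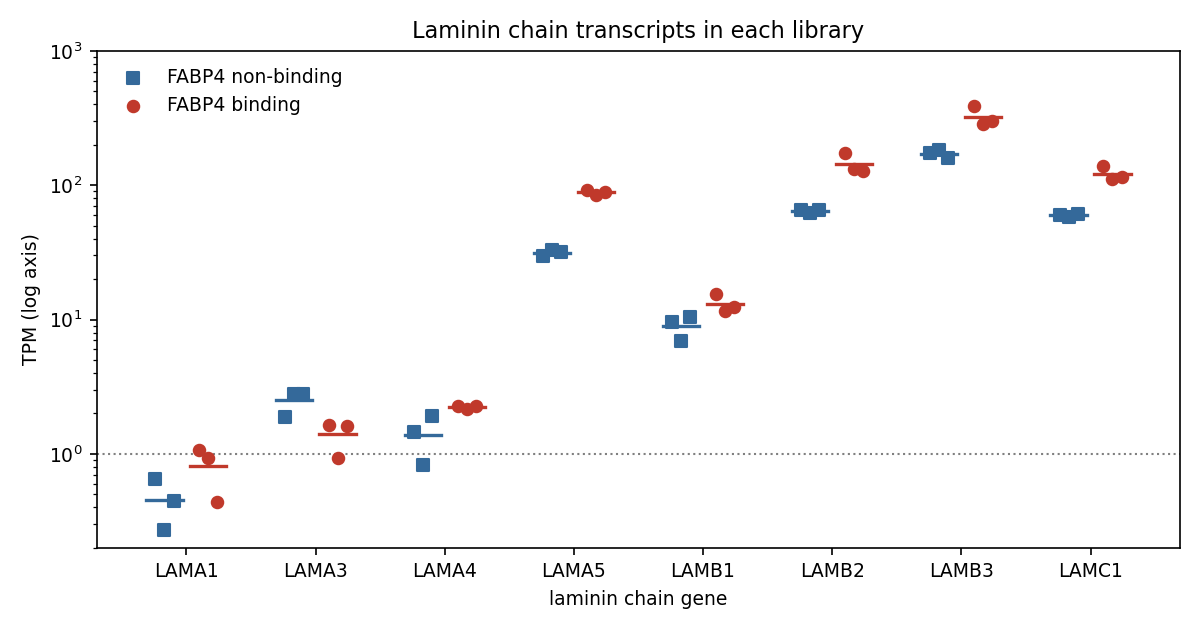
TPM on a log axis for the 8 laminin chain genes, with 1 point per library, squares for FABP4 non-binding, circles for FABP4 binding and a bar at each mean. LAMB3 is the highest chain in every library, from 160 to 388 TPM, and LAMA1 lies near or below the dotted line at 1 TPM.

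LAMA5 encodes the alpha 5 chain, found in most adult basement membranes and bound by the integrins with alpha 3 or alpha 6 subunits. The gene spans 62307955 to 62367312 on the minus strand of chromosome 20 (hg38, GENCODE release 29). It measured 29.7, 32.7 and 31.7 TPM in non-binding replicates 1, 2 and 3 and 91.7, 84.5 and 89.5 TPM in binding replicates 1, 2 and 3. The groups lay far apart, and each was tight. The log2 change was 1.47 (95% interval 1.18 to 1.76; limma, adjusted p = 0.00234), or 1.11 above the median of all genes. LAMA5 had a larger change than 98.8% of tested genes. It passed in all 15 alternative fits, with log2 changes of 1.15 to 1.50 and adjusted p of 0.00156 to 0.0253. An antisense gene, LAMA5-AS1, lies within the LAMA5 locus. It ranged from 0 to 2.09 TPM over the non-binding and from 0.707 to 7.06 TPM over the binding libraries. The labels do not state whether strand was used in counting, so reads of the antisense gene and of LAMA5 cannot be told apart.

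LAMB2 encodes the beta 2 chain of laminins 521 and 421, best known from the glomerulus and the neuromuscular junction. It spans 49121114 to 49133118 on the minus strand of chromosome 3. Its levels were 65.0, 62.2 and 65.6 TPM in the non-binding and 173, 132 and 128 TPM in the binding libraries, each in the order of replicates 1, 2 and 3. Binding replicate 1 stood above the other two, yet the lowest binding value was still clear of the highest non-binding value. The log2 change was 1.15 (95% interval 0.80 to 1.49; limma, adjusted p = 0.00959). The unprocessed pseudogene listed as AC135506.1, named LAMB2P1 in the name table, lies upstream on the same strand. It was listed at 0 in the non-binding libraries and from 0.552 to 2.24 TPM in the binding ones. How reads shared by the pair were assigned is not given in the sources used here.

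LAMC1 encodes gamma 1, the gamma chain of most laminins. It spans 183023460 to 183145592 on the plus strand of chromosome 1. Non-binding libraries gave 60.4, 58.1 and 60.6 TPM and binding libraries 139, 110 and 115 TPM, in replicate order. As with LAMB2, the groups did not overlap and binding replicate 1 was the highest library. The log2 change was 1.01 (95% interval 0.69 to 1.32; limma, adjusted p = 0.0101). An antisense gene within its locus, LAMC1-AS1, ranged from 0 to 1.80 TPM and from 0 to 6.22 TPM over the non-binding and binding libraries, with the same limit on strand.

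LAMB3 encodes the beta 3 chain, the partner of LAMA3. The gene spans 209614870 to 209652466 on the minus strand of chromosome 1. It was the highest laminin chain in each library and ranked 629 by mean TPM among tested genes. Its values were 173, 183 and 160 TPM in non-binding and 388, 284 and 299 TPM in binding replicates 1, 2 and 3. Binding replicate 1 again led, and the lowest binding library was clear of the highest non-binding one. The log2 change was 0.90 (95% interval 0.55 to 1.24; limma, adjusted p = 0.0136), or 0.54 above the median of all genes. With the common median the log2 change of LAMB3 was 0.58.

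The remaining beta chain, LAMB1, partners LAMA5 in laminin 511 and LAMA4 in laminin 411. It measured 9.62, 6.90 and 10.4 TPM in non-binding and 15.5, 11.6 and 12.3 TPM in binding replicates 1, 2 and 3. The groups did not overlap, but non-binding replicate 2 lay well below the other two. The log2 change of 0.51 (95% interval 0.02 to 1.00) did not pass (limma, adjusted p = 0.104). Under the common median it was 0.19 and after quantile normalization 0.18, and relative to the median of all genes 0.15, so the LAMB1 difference lay near that of the median gene.

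LAMA4, the alpha chain of vascular and mesenchymal laminins, measured 1.45, 0.821 and 1.91 TPM for the non-binding and 2.27, 2.16 and 2.29 TPM for the binding replicates 1, 2 and 3. The binding libraries were closely spaced above a scattered non-binding group. The log2 change of 0.46 (95% interval -0.21 to 1.14) did not pass (limma, adjusted p = 0.247). LAMA1, the alpha chain of the early embryo, measured 0.654, 0.272 and 0.445 TPM for the non-binding and 1.06, 0.938 and 0.435 TPM for the binding replicates 1, 2 and 3. Its groups overlapped, and with 1 library at 1 TPM or more it was not tested.

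LAMA3 encodes the alpha 3 chain, with which beta 3 is secreted. It spans 23689443 to 23956222 on the plus strand of chromosome 18 and has a long and a short form. Values were 1.89, 2.81 and 2.81 TPM in non-binding and 1.65, 0.925 and 1.62 TPM in binding replicates 1, 2 and 3. The groups did not overlap, though the lowest non-binding and the highest binding library were close. The log2 change of -0.55 (95% interval -1.22 to 0.12) did not pass (limma, adjusted p = 0.174). Relative to the median of all genes it was -0.91. Under the common median LAMA3 gave -0.87 (limma, adjusted p = 0.063). Over its 14 alternative fits the log2 change ran from -0.87 to -0.40 with none past the threshold.

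**Figure D2:**
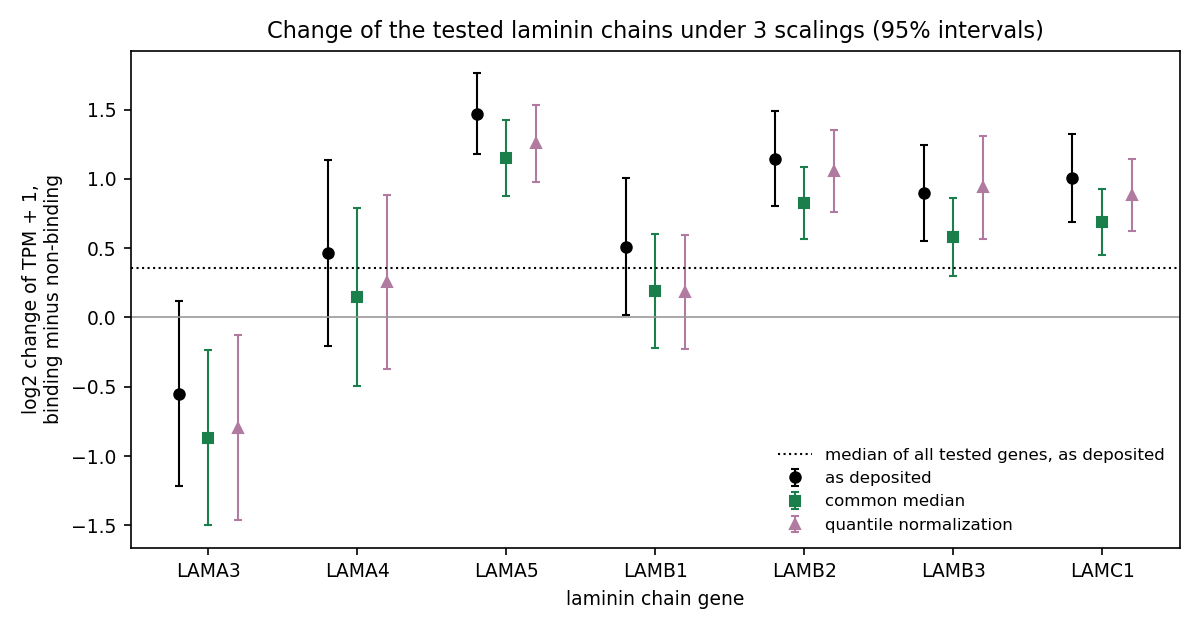
Log2 change of TPM + 1 (binding minus non-binding, 95% limma intervals) for the 7 tested laminin chain genes with the deposited scaling, a common median and quantile normalization; the dotted line is the median of all tested genes, 0.36. LAMA5, LAMB2, LAMB3 and LAMC1 have intervals above 0 under each scaling, and LAMA3 has its point below 0 under each.

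Basal keratinocytes are a known source of LAMA3 and LAMB3. Markers of epidermal keratinocytes, a list not limited to basal cells, moved with the groups. All 12 markers on that list had negative log2 changes. Of these, 7 passed downward and 0 upward (9 and 0 at an unadjusted p under 0.05 by limma), against 7.12% and 19.6% of all tested genes. The markers summed to 2602 to 3663 TPM over the non-binding libraries and to 1082 to 1733 TPM over the binding ones. No marker was at 0 in every library. Among markers of basal cells, KRT5 and KRT14 passed downward, while KRT15 and TP63 did not (limma, adjusted p = 0.20 and 0.26). LAMA3 was lower in the same libraries as this list, and LAMB3 was higher. The part of the keratinocyte markers in either value was not tested. As these are bulk samples, fewer cells with the marker transcripts and fewer such transcripts per cell cannot be told apart. Whether any keratinocytes were present was not tested.

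Chains of the same class were compared within each library, where the scaling of the library cancels. Among alpha chains LAMA5 made up 87.0% ± 2.44 of the TPM in non-binding and 94.7% ± 0.278 in binding libraries. LAMA3 made up 6.90% ± 1.14 and 1.48% ± 0.386, and LAMA4 3.86% ± 1.46 and 2.40% ± 0.0492 (SD, n = 3 each). Both LAMA5 and LAMA3 shares separated the groups completely, in opposite directions, while those of LAMA4 overlapped. Shares within a class are tied, so the higher LAMA5 by itself lowers the shares of the other alpha chains. The change of LAMA3 in TPM did not pass (limma, adjusted p = 0.174). The class sum was 36.1 ± 1.98 TPM for the non-binding and 93.6 ± 4.08 TPM for the binding libraries. The shares and sums are descriptions with no test.

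The beta class was mostly LAMB3, at 70.0% ± 2.39 in non-binding and 67.2% ± 0.822 in binding libraries. LAMB2 held 26.2% ± 1.57 and 30.1% ± 0.887, and LAMB1 3.68% ± 0.857 and 2.73% ± 0.0566. The beta class sum was 245 ± 8.39 and 482 ± 82.8 TPM. The LAMB2 shares separated the groups, at 24.7% to 27.8% and 29.2% to 30.9%, and those of LAMB3 overlapped.

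3 ratios between chains were tested with an exact two-sided permutation test over the 6 libraries, for which the smallest p is 0.1. The LAMB2 to LAMB1 ratio was 6.75, 9.01 and 6.30 in non-binding and 11.2, 11.5 and 10.4 in binding libraries (exact p = 0.1, 0.15 adjusted over the 3 ratios). The LAMA5 to LAMA3 ratio was 15.7, 11.6 and 11.3 in non-binding and 55.5, 91.3 and 55.4 in binding libraries (exact p = 0.1, adjusted 0.15). In both, every binding library was above every non-binding library. The LAMB3 to LAMB1 ratio, at 18.0, 26.5 and 15.3 against 25.0, 24.6 and 24.3, overlapped (exact p = 0.4, adjusted 0.4).

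**Figure D3:**
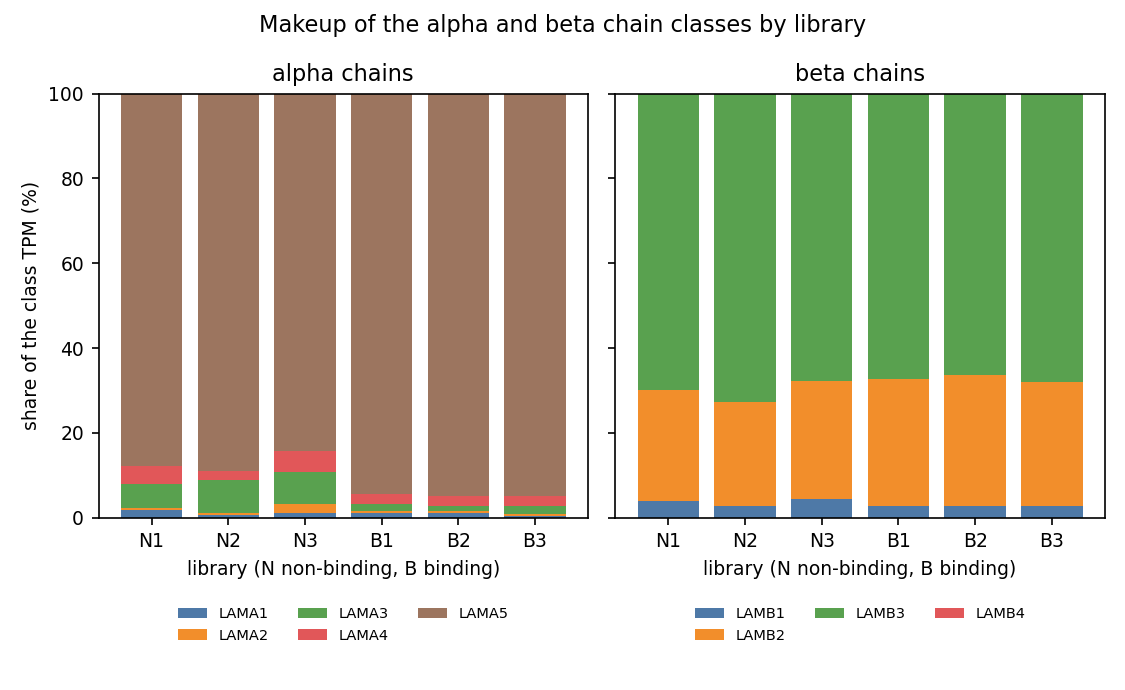
Stacked bars give each gene's percent of the summed TPM of its chain class in every library, with N1 to N3 non-binding and B1 to B3 binding. LAMA5 fills 84.2% to 88.9% of the alpha class in the non-binding and 94.4% to 94.9% in the binding libraries, and the beta class is mostly LAMB3 throughout.

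Set side by side as trimers, the chains fell into a matched set and several mismatched sets. A laminin needs each of its 3 chains, so the lowest chain of a trimer is given as a description of the transcripts, not as an amount of protein. TPM depend on the transcript length that was used, which for genes with long and short forms such as LAMA3 is not known here.

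The chains of laminin 521 were the closest to each other. Within a library the highest of LAMA5, LAMB2 and LAMC1 was 1.90 to 2.19 times the lowest in non-binding cells and 1.43 to 1.89 times in binding cells. The lowest was LAMA5 in all 6 libraries, 31.4 ± 1.51 TPM among non-binding and 88.6 ± 3.68 TPM among binding libraries. Laminin 511, which shares LAMA5 and LAMC1 with it, was lowest in LAMB1, at 8.98 ± 1.84 and 13.1 ± 2.12 TPM. The trimers 411 and 421 were lowest in LAMA4, 311 and 321 in LAMA3, and 111 and 121 in LAMA1, each at under 3 TPM in every library.

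The 2 chains LAMA3 and LAMB3, which join in 1 laminin, were far apart by their transcripts. LAMB3 exceeded LAMA3 by 56.9 to 91.6 times in non-binding and by 185 to 307 times in binding libraries, so the ratio ranges of the groups did not overlap. This ratio was not tested, and it divides by LAMA3 values of 0.925 to 2.81 TPM, near the 1 TPM minimum of the filter. LAMB3 was higher in the binding cells by the test, and LAMA3, the lower of the pair in all 6 libraries, was not.

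**Figure D4:**
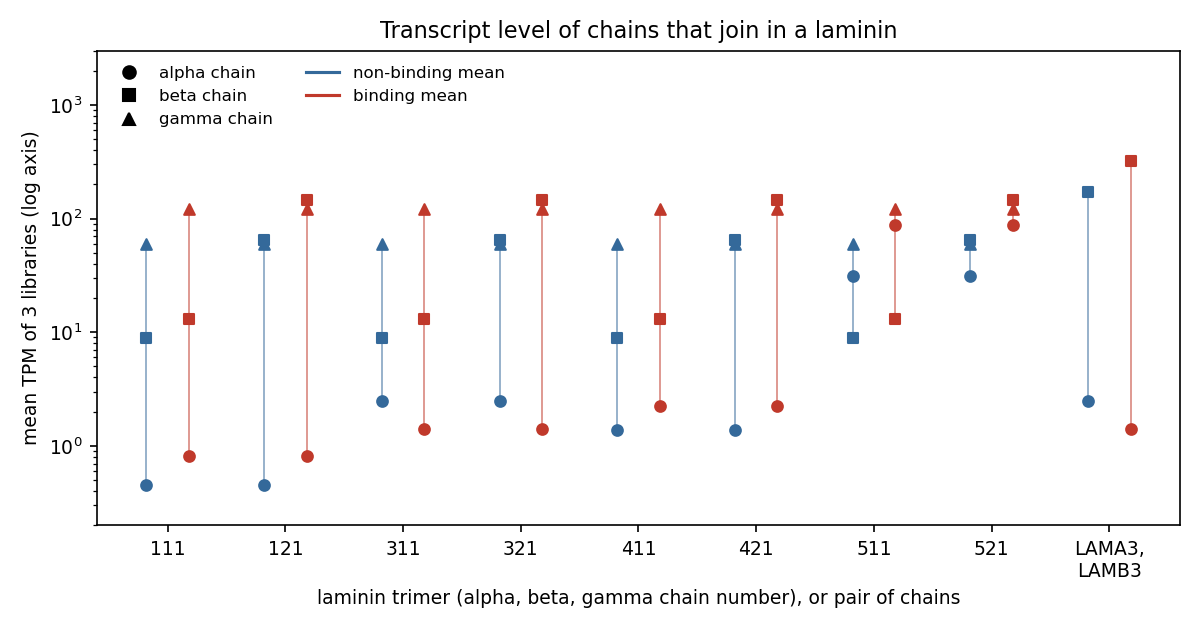
Mean TPM over 3 libraries (log axis) of the alpha chain (circle), beta chain (square) and gamma chain (triangle) of 8 laminins, and of LAMA3 and LAMB3 alone at the right, non-binding in blue and binding in red. The points of laminin 521 lie close together in both groups, and the pair at the right runs from LAMA3 at 2.50 and 1.40 TPM to LAMB3 at 172 and 324 TPM.

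By level, non-binding cells had LAMB3 first, then LAMB2 and LAMC1, LAMA5, LAMB1, LAMA3, LAMA4 and LAMA1. LAMB2 and LAMC1 did not overlap in the non-binding libraries, at 62.2 to 65.6 and 58.1 to 60.6 TPM. They overlapped in the binding libraries, at 128 to 173 and 110 to 139 TPM. LAMA3 and LAMA4 changed places: LAMA3 was above LAMA4 in each non-binding library, though their ranges there overlapped slightly, and LAMA4 was above LAMA3 in each binding library, where the ranges did not overlap. LAMA3 and LAMA1 overlapped in binding cells.

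Across the 6 libraries LAMB2 and LAMC1 ran closest to each other (Pearson r = 0.998 of log2(TPM + 1)), followed by LAMB3 with LAMC1 and with LAMB2 (0.984 each) and LAMA5 with LAMC1 (0.983). LAMA3 had negative r with the other 6, from -0.77 to -0.58. These points are 2 groups of 3 libraries, so r mostly restates the difference between the groups and is no test. Among protein-coding genes of at least 10 TPM, those most like LAMC1 were KRT18, ITGA3 and AGRN (r = 0.999 each). Those most like LAMB2 were TGFBI, HEG1 and SHKBP1 (0.999 each), and those most like LAMA5 were EHD2 (0.999), AGPAT2 and SNX3 (0.997 each). LAMB3 was closest to NIPAL3 (0.999), FAM208A and RETSAT (0.998 each). Such values were common: 1368 to 2436 of 6921 candidates had r above 0.9 with a given member of these 4. LAMB1 was closest to TMEM14B, TERF2IP (0.998 each) and HES4 (0.996), LAMA4 to H2AFX (0.998), NOCT and GPC1 (0.991 each), and LAMA3 to PSPC1 (0.987), RIOK3 (0.986) and PTPN9 (0.985).

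Laminins act through cell surface receptors, chiefly integrins, and bind other basement membrane proteins. In the list of laminin receptors and their partners 7 of 9 tested genes were higher and 0 lower (8 and 0 at an unadjusted p under 0.05 by limma). Of all tested genes, 19.6% were called higher and 7.12% lower. The median log2 change of the list was 0.87, against 0.36 for all tested genes. ITGA3, which pairs with ITGB1 as a laminin receptor, had 112 ± 1.00 TPM in non-binding against 235 ± 31.5 in binding libraries, the order also used for the values that follow. ITGB4, which pairs with ITGA6 in hemidesmosomes, measured 119 ± 16.3 and 331 ± 39.4 TPM, and ITGA6 itself 56.4 ± 6.16 and 98.8 ± 13.8 TPM. BCAM, a receptor for the alpha 5 chain, measured 12.8 ± 0.0791 and 28.5 ± 2.71 TPM, and ITGB1 252 ± 18.6 and 443 ± 57.2 TPM (SD, n = 3 each). These 5 passed. DAG1, which encodes dystroglycan, did not, at 35.6 ± 1.52 and 49.1 ± 7.61 TPM (limma, adjusted p = 0.063). Without non-binding replicate 3, ITGB4 was the 1 gene of all 5 partner lists that passed. Without non-binding replicate 2, 5 genes did, against 15 with all libraries. Among all tested genes, 58 were called higher without non-binding replicate 3 and 280 without non-binding replicate 2, against 3047 with all libraries.

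Among the basement membrane partners 6 of 13 tested genes were higher and 0 lower (6 and 0 at an unadjusted p under 0.05 by limma). The shares over all tested genes were 19.6% higher and 7.12% lower. Of the 13, FREM2 and FRAS1 reached 1 TPM only in binding libraries, so their entry into the test depended on the group where they were higher; neither was called, and no median is given for this list. AGRN, which encodes agrin, a proteoglycan that binds the laminin coiled coil, had 98.8 ± 0.512 TPM against 213 ± 32.8 TPM. COL18A1 (18.9 ± 2.30 and 39.7 ± 7.11 TPM) and the type IV collagen chain COL4A1 (11.7 ± 1.76 and 26.8 ± 7.47 TPM) were also higher. The nidogens, which link laminin to type IV collagen through gamma 1, were not called: NID1 measured 3.33 ± 1.31 and 2.90 ± 0.758 TPM and NID2 4.47 ± 2.78 and 1.72 ± 1.02 TPM. The nidogens were named after their values were seen.

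Of 4 tested proteases that cut laminin chains, 1 was higher and 0 lower (2 and 1 at an unadjusted p under 0.05 by limma). Of all tested genes, 19.6% were called higher and 7.12% lower. The median log2 change of the 4 was 0.19, under the 0.36 of all tested genes. The one called was BMP1, a secreted metalloprotease, at 3.92 ± 0.633 and 7.31 ± 1.41 TPM, and leaving out any single library of the 6 ended its call, as did the common median and quantile normalization. MMP14 (58.6 ± 1.26 and 74.0 ± 8.12 TPM) and ST14 (18.1 ± 6.26 and 9.76 ± 3.11 TPM) were not called. In the netrin family, secreted proteins with laminin-type domains, 1 of 3 tested genes was higher and 0 lower (1 and 0 at an unadjusted p under 0.05 by limma). The same all-gene shares apply, and the median log2 change of the 3 was 0.04. The gene called was NTN4, which binds the gamma 1 chain, at 20.7 ± 1.41 and 45.2 ± 19.6 TPM. Leaving out any single non-binding library ended the NTN4 call, as did the common median and quantile normalization. NTN1 (2.66 ± 0.371 and 1.63 ± 0.829 TPM) and NTNG2 (3.05 ± 0.609 and 3.19 ± 0.717 TPM) were not called. LAMA2, LAMB4 and LAMC3, which are laminin chain genes outside the 8, lay under 1 TPM in every library.

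**Figure D5:**
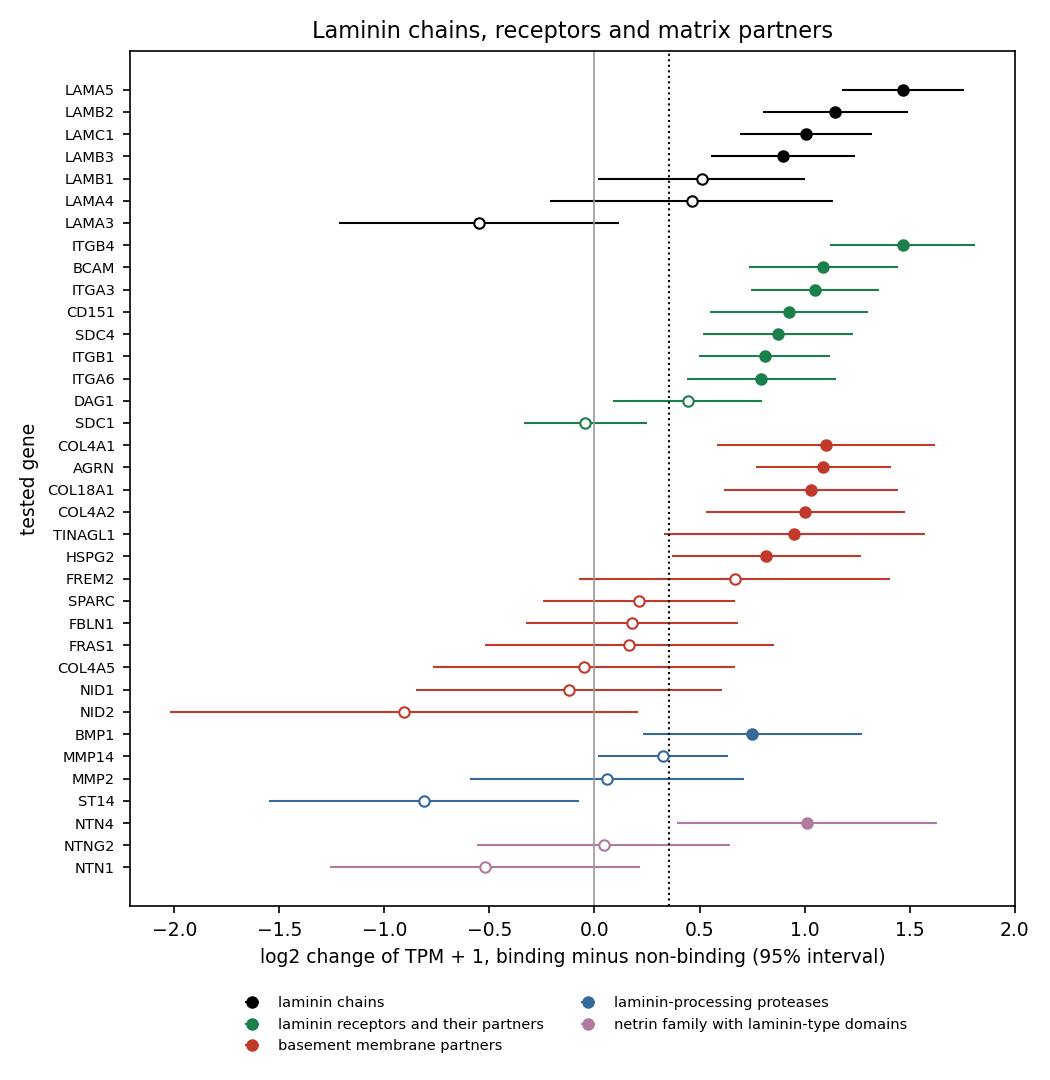
Log2 change of TPM + 1 (binding minus non-binding) with 95% limma intervals for the tested laminin chains, receptors, matrix partners, proteases and netrins; filled points passed an adjusted p of 0.05 and the dotted line is the median of all tested genes, 0.36. ITGB4 at 1.47 lies beside LAMA5 at 1.47, and the nidogens lie left of 0.

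Of the series as a whole, 15300 to 15945 genes per library reached 1 TPM. Mitochondrial transcripts took 2.98% to 3.38% of TPM in non-binding and 9.99% to 11.2% in binding libraries. The median tested gene was still higher in the binding libraries, with a log2 change of 0.36. Scaled to nuclear protein-coding transcripts alone, LAMA5, LAMB2, LAMC1 and LAMB3 gave log2 changes of 1.42, 1.09, 0.95 and 0.84. With the deposited scaling these were slightly larger, at 1.47, 1.15, 1.01 and 0.90. LAMA4, which was not called, went the other way, at 0.48 against 0.46. The 7 genes taken to mark MDA-MB-231 summed to 1843 to 1911 TPM on the non-binding side and 2166 to 2324 TPM on the binding side. Marker lists of fibroblasts, endothelium and leukocytes summed to at most 76.4 TPM in any library, a value of the leukocyte list in a non-binding library. The epidermal keratinocyte list was far higher, at 2602 to 3663 TPM in non-binding and 1082 to 1733 TPM in binding libraries. In every non-binding library it was thus above the sum of the MDA-MB-231 list. The source of the keratinocyte transcripts was not tested.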

How the data were processed

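Total RNA was depleted of ribosomal RNA, fragmented and randomly primed, per the labels' protocols. The deposited values are TPM, since each of the 6 columns sums to 1000000. Per the submitters' processing notes, the authors used hg38. For aligner, quantifier and annotation: not given in the sources used here. Columns were matched to samples by the names in the labels.

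A gene was tested if 3 or more libraries had 1 TPM or more (15574 of 58051). The test, on log2(TPM + 1), which understates changes of low genes, was limma (version 3.58.1, R version 4.3.3) with its intensity trend, no block and Benjamini-Hochberg adjustment over all tested genes. The script was tested on simulated data. Gene positions came from GENCODE release 29, which held 99% of the identifiers. The members and gene lists were chosen with earlier results of these data known. Named genes were all members, 6 receptor genes, the 3 of smallest p in each other list and, for likeness, the 3 genes of highest r per member; a further item of the rule is not reported here. Alternatives varied pseudocount, filter, scaling, block, trend and libraries used.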

Additional observations from a re-analysis of the deposited data

How the results depend on the processing

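LAMA5 passed in all 15 alternative fits, and LAMB2, LAMB3 and LAMC1 in 14, failing without non-binding replicate 3. The count of laminin chains called higher was 4 in every fit that kept all 6 libraries and 1 to 4 when 1 library was left out; the count called lower was 0 throughout. For the laminin partner and receptor genes, 15 of 29 tested were higher and 0 lower (17 and 1 at an unadjusted p under 0.05 by limma). Of all tested genes, 19.6% were called higher and 7.12% lower. The partner count higher was 11 under the common median, where 6.18% of all genes were called higher. It was also 11 after quantile normalization, where 7.69% were. Leaving out 1 library gave 1 to 14 higher and 0 to 1 lower, with 5 higher without non-binding replicate 2 and 1 without non-binding replicate 3; 1 (ST14) was lower under the common median, after rescaling to nuclear protein-coding genes and without non-binding replicate 1. Over all genes, 3047 were higher and 1109 lower. Counts higher were 1373 without a filter, 962 with the common median, 1197 with quantile normalization, 1992 without the intensity trend and 58 to 1975 with 1 library left out. The count higher was 58 without non-binding replicate 3 and 280 without non-binding replicate 2. Counts lower were 500 without a filter, 1890 with the common median, 567 without the intensity trend and 6 to 888 with 1 library left out. The cause was not tested.

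The log2 change of NTNG2, 0.04, became -0.27 under the common median, -0.18 after quantile normalization, -0.0009 after rescaling, -0.06 without binding replicate 3 and -0.08 without non-binding replicate 3, and ran from -0.0836 to 0.1864 with 1 library left out. Log2 differences of the ratios were 0.60 for LAMB2 to LAMB1 (0.50 to 0.75 with 1 library left out), 0.34 for LAMB3 to LAMB1 (0.17 to 0.57) and 2.36 for LAMA5 to LAMA3 (2.12 to 2.51). With 1 TPM added to both chains they were 0.64, 0.39 and 2.02. Pairing the libraries by number cannot move these means; the exact two-sided paired permutation p was 0.25, 0.5 and 0.25, and 0.25 is the smallest that 3 pairs allow.

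The labels give both groups replicates 1 to 3, and the deviations of same-numbered libraries correlated at 0.03, -0.02 and 0.03. With 3 libraries per group, such values cannot show whether same-numbered libraries were grown or sorted together. With the replicate number as a block, 3174 genes were higher and 1132 lower, and the 4 laminin chains called higher stayed at 4. Not every library correlated best with its own number. TPM give no depth, so how far depth limits the low chains LAMA1, LAMA3 and LAMA4 is unknown.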
